A study of Mus musculus with 4 samples.

Results

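The cells described here were cycling C1q-positive macrophages from mouse melanoma, chosen from single-cell transcriptomes of tumor-infiltrating CD45-positive cells by what they expressed. A cell was kept when at least 1000 and fewer than 6000 genes were detected and fewer than 10% of its unique molecular identifiers (UMIs, each standing for 1 captured transcript) came from mitochondrial genes. A kept cell entered the C1q gate with at least 10 UMIs of *C1qa*, *C1qb* and *C1qc* together, at least 5 UMIs of *Lyz2*, at most 1 UMI of *Cd3d*, *Cd3e* and *Cd3g* together and no UMI of *Ncr1*. It was counted as cycling, and is called a member below, with at least 3 UMIs of *Mki67* and *Top2a* together. Of 8822 kept cells in the CD45 sort, 1798 passed the C1q gate and 185 of these were cycling. These genes chose the cells, so their levels are given as a description.

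All cells came from C57BL/6 mice that carried subcutaneous B16-F10 melanomas of a single clone, in which doxycycline turns on the green fluorescent protein ZsGreen, and every tumor was taken on day 8. All animals received doxycycline, so no group lacked the tumor or the inducer. CD45-positive cells were sorted into a ZsG-positive gate set for bright cells and a ZsG-negative gate, and 1 library was made from each, without replicate libraries. The sources used here give neither the age of the mice nor how many were pooled. From the ZsG-negative gate 47537541 UMIs were deposited in 5437 barcodes, of which 4699 were kept as cells, and from the ZsG-positive gate 56510578 UMIs in 5168 barcodes, of which 4123 were kept. The libraries shared 6 barcode sequences, and no member carried one of them. The labels call the sorted cells tumor-infiltrating lymphocytes, but the members carried macrophage transcripts, as described below.

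Complement C1q is made in tissues mainly by macrophages, which engulf dying cells and debris, and in tumors such cells arise both from recruited blood monocytes and from division of macrophages already in place. A dividing cell first copies its DNA in S phase, with loading of the MCM helicase, a supply of deoxynucleotides and new histones, and then assembles a spindle and separates its chromosomes in G2 and M phase. The S phase genes are driven largely by E2F transcription factors, while many G2/M genes are held silent in resting cells by the DREAM complex, which binds a short promoter element called CHR. *Mki67* encodes the proliferation antigen Ki-67, and *Top2a* encodes the topoisomerase that untangles replicated DNA.

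Every member came from the ZsG-positive library. There, 1793 of 4123 kept cells passed the C1q gate, which was 43.5% (42.0 to 45.0), and 185 of the 1793 were cycling, which was 10.3% (8.95 to 11.8). Ranges after shares are exact 95% binomial (Clopper-Pearson) intervals. Like the intervals on counts and ratios below, they cover counting error only and say nothing about spread between mice or tumors. The intervals on counts and ratios take each UMI as independent. They therefore leave out spread between cells too, and are too narrow where few cells hold many of the UMIs. In the ZsG-negative library 5 cells passed the C1q gate and 0 were cycling, for which 3 counts, the limit used here for a count of 0, are a share of 60%. A difference in cycling share between the ZsG gates was therefore not detectable with 5 cells.

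The gate was applied stepwise. Of the 438 kept ZsG-positive cells with at least 3 UMIs of *Mki67* and *Top2a*, 249 passed the C1q threshold, 246 of those passed the *Lyz2* threshold, 189 passed the *Cd3* limit and 185 carried no *Ncr1* UMI. Members held a median of 5 *Mki67* UMIs (0 to 44) and 5 *Top2a* UMIs (0 to 42), and the sum had a median of 11 (3 to 77). At the threshold, 29 members carried a sum of 3, whereas 74 gated cells just outside it carried 2, 197 carried 1 and 1337 carried none.

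The members were deeply sampled cells. They held a median of 24206 UMIs (6307 to 42727) and 4623 genes, against 12111.5 UMIs in the 1608 gated ZsG-positive cells with a sum under 3. The cycling share moved with depth: it was 1.39% (0.454 to 3.22) among the 359 gated cells with the fewest UMIs and 34.0% (29.1 to 39.1) among the 359 with the most. After each gated cell was thinned to 5000 UMIs, with 52 shallower cells left out, 15.7% (14.0 to 17.5) of 1741 cells kept at least 1 UMI of *Mki67* or *Top2a*, 7.41% (6.22 to 8.74) kept at least 2, and 4.94% (3.97 to 6.06) kept at least 3. Cells that kept at least 2 still had a median of 22872 UMIs before thinning, against 12608.5 in the rest, and 120 of these 129 cells were members. Thinning made the number of UMIs read per cell equal, and the cause of the difference in depth that was left was not tested.

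For this reason each member was compared with 1 gated cell of like depth (log10 UMIs within 0.05) and a sum under 3. Gated cells with a sum under 3 are called non-cycling for short, although some carried cell cycle transcripts. Among the partners, *Mki67* was found in 18.4% and *Top2a* in 14.1%. All 185 members found a partner, and the partners, called comparison cells below, had a median of 24239 UMIs. Levels are CPM, the UMIs of a gene for every 1000000 UMIs summed over each set of cells, 4514576 in members and 4467147 in comparison cells. Mitochondrial genes took a median of 3.81% of UMIs in members and 3.25% in comparison cells. Because the cells came from 1 library and were split by their own expression, no test was run and every ratio below is a description.

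The macrophage label was checked against marker genes. All 185 members carried at least 3 UMIs of 16 macrophage markers, at 16618 CPM against 16528 CPM in comparison cells, but these include the C1q genes on which both sets were gated. The 13 markers without C1q stood at 7858 CPM in members and 9008 CPM in comparison cells (log2 ratio -0.20, -0.22 to -0.18), with 1 of 13 genes above 0. *Cd68*, which encodes a lysosomal membrane protein of macrophages, was found in 185 members, at 1 to 49 UMIs with a median of 14. *Csf1r*, the receptor for the macrophage growth factor CSF-1, was found in 95.7% of members and 98.4% of comparison cells, and *Adgre1*, which encodes F4/80, in 88.6% and 91.4%. *C1qa* itself had a median of 67 UMIs per member (0 to 283) against 51 (0 to 232) per comparison cell.

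Monocyte markers were present too, with at least 3 UMIs in 172 of 185 members, and stood at 1468 CPM in members and 2490 CPM in comparison cells. *Ccr2*, the chemokine receptor of monocytes, was found in 85.9% of members, and *Ly6c2*, another monocyte marker, in 78.4%. Markers of other lineages were low, and the summed level of each of the 9 defining marker sets was lower in members than in comparison cells of like depth. T cell markers stood at 4.87 CPM in members and 7.16 CPM in comparison cells, NK cell markers at 0 and 3.36 CPM (both sets include genes that the gate limited), neutrophil markers at 1.33 and 9.40 CPM, and B cell markers at 8.42 and 10.3 CPM. Markers of cDC1 stood at 38.1 and 51.5 CPM, of cDC2 at 26.8 and 48.4 CPM, of mature dendritic cells at 7.09 and 61.6 CPM, of plasmacytoid dendritic cells at 5.76 and 10.5 CPM, and melanoma pigment markers at 26.1 and 39.4 CPM. *Fscn1*, *Klrb1c*, *Klra8*, *Eomes*, *Ms4a1* and *Cxcr2* were at 0 UMIs in all members. The wider lists of these cell types were also lower in members, except for B cells at 87.3 CPM against 83.5 CPM and the melanoma genes other than pigment at 50.9 CPM against 48.4 CPM. Monocytes aside, at least 3 UMIs of some other cell type's defining markers were found in 37 of 185 members and in 58 of 185 comparison cells. Over all 1608 non-cycling gated cells, which were shallower, it was 133, and there the cDC1 (21.1 CPM), cDC2 (21.4 CPM), plasmacytoid (4.06 CPM) and B cell (7.44 CPM) sets stood below the level in members. Among single genes, *Ccr7*, the chemokine receptor of migrating dendritic cells, had 17 UMIs in members and 162 in comparison cells, where 20 cells held them. The comparison cells thus held more transcripts of mature dendritic cells than the members did, and the part of these cells in the ratios below is given where leaving them out moved a value.

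In all, 6863 genes had at least 100 UMIs over both sums and were compared. Of these, 280 were at least 2 times higher in members, which was 4.08% of the genes compared. At least 2 times lower were 21, which was 0.306%. A gene could reach 100 UMIs through 1 set of cells alone. Among genes of low level this favors those high in 1 set, which can enlarge the list counts and medians below. The median log2 ratio of members over comparison cells over all 6863 genes was 0.03. Of the 280 higher genes, 164 were *Mki67*, *Top2a* or on 1 of 12 lists of cell cycle genes, and 116 were on none. The lists leave both gate genes out. Of the 21 lower genes, 0 were in this class. The same class held 208 of all 6863 genes compared, so a count of 0 in 21 genes is near that share. The 12 lists with *Mki67* and *Top2a* took 2.66% of the UMIs of members and 1.08% of those of comparison cells.

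**Figure D1:**
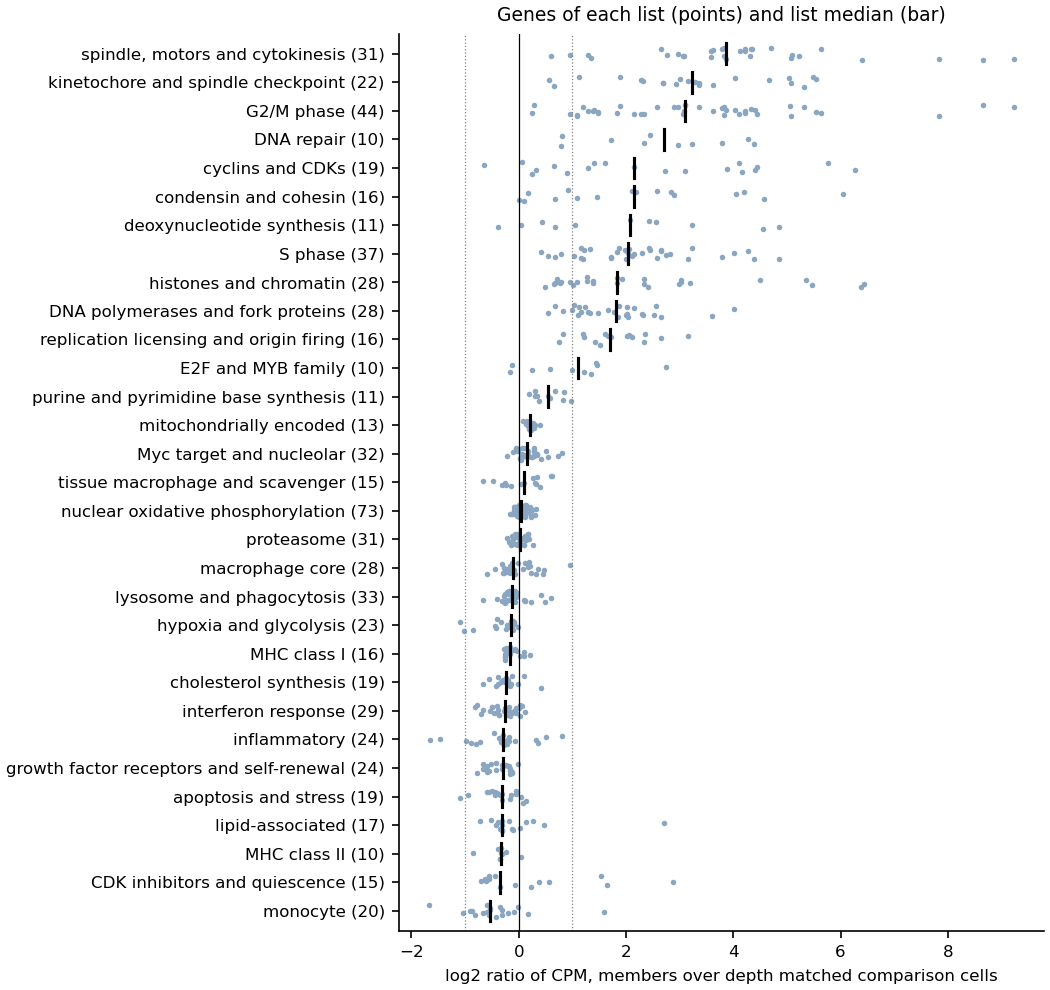
Log2 ratio of CPM, members over depth matched comparison cells (x axis), for the genes of each list with at least 100 UMIs (points, jittered vertically only; number of genes in brackets) and the list median (black bar), with dotted lines at 2-fold. Lists of the cell cycle lie to the right of 0, with spindle genes at a median of 3.86, while macrophage, MHC and monocyte lists lie near or to the left of 0.

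Replication genes were higher in members throughout. On the S phase list 33 of 37 genes were at least 2 times higher and 0 lower, with a median log2 ratio of 2.04. On the licensing and origin firing list 14 of 16 genes were at least 2 times higher and 0 lower, with a median log2 ratio of 1.69. *Mcm6*, a subunit of the MCM helicase that opens the DNA ahead of the fork, stood at 90.6 CPM in members and 22.2 CPM in comparison cells, a log2 ratio of 2.03 (1.71 to 2.36). *Mcm3*, another helicase subunit, had a log2 ratio of 1.66 (1.41 to 1.92), and *Gmnn*, which encodes geminin, the inhibitor of a further round of licensing, had 1.72 (1.47 to 1.99).

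Among DNA polymerases and fork proteins 24 of 28 genes were at least 2 times higher, with a median log2 ratio of 1.82. *Pcna*, the sliding clamp that holds the polymerase on DNA, had a median of 5 UMIs per member (0 to 24) against 3 (0 to 13) per comparison cell, and its log2 ratio was 1.16 (1.01 to 1.31). Enzymes that make deoxynucleotides were split, with 7 of 11 at least 2 times higher and a list median of 2.07. *Rrm2*, the S phase subunit of ribonucleotide reductase, stood at 80.6 CPM against 2.69 CPM (log2 ratio 4.85, 4.09 to 5.87), and *Tk1*, thymidine kinase, had a log2 ratio of 4.54 (3.85 to 5.44). *Samhd1*, which degrades deoxynucleotides, went the other way at 590 CPM in members and 768 CPM in comparison cells (log2 ratio -0.38, -0.45 to -0.31). None of 11 genes of purine and pyrimidine base synthesis reached 2-fold, and their median was 0.54.

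Genes for histones and chromatin proteins were at least 2 times higher in members at 21 of 28, with a median of 1.83. The replication-dependent linker histone *Hist1h1b* had 1698 UMIs in members and 19 in comparison cells, and 110 members carried at least 1 (up to 107 UMIs in 1 member). Most replication-dependent histone transcripts lack a poly(A) tail and have near-identical copies, so their capture and their assignment to single genes are uncertain in these libraries. *H2afz*, a variant histone made outside S phase too, stood at 2006 CPM against 996 CPM (log2 ratio 1.01, 0.96 to 1.06). Condensin and cohesin genes, whose products fold and hold together the copied chromosomes, were at least 2 times higher at 11 of 16 (median 2.15), with *Smc4* the most abundant at 271 CPM against 45.2 CPM. That median was 1.25 (10 genes left) after thinning without matching, against all non-cycling gated cells of at least 5000 UMIs. It was 1.07 without cells carrying other cell types' UMIs (7 genes left). The cohesin subunit *Smc1a* was less changed, with a log2 ratio of 0.92 (0.74 to 1.11).

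The largest list medians belonged to mitosis. On the G2/M list 41 of 44 genes were at least 2 times higher and 0 lower, with a median of 3.10. On the spindle, motor and cytokinesis list 29 of 31 genes were at least 2 times higher (median 3.86). On the kinetochore and spindle checkpoint list it was 20 of the 22 compared, out of 31 genes listed (median 3.22, but 1.97 over 8 genes after thinning without matching). *Cenpe* and *Cenpf*, kinetochore proteins present mainly in G2 and M phase, had log2 ratios of 5.31 (4.57 to 6.28) and 5.08 (4.37 to 6.01). *Nusap1*, a microtubule-binding spindle protein, had 305 UMIs in members and 0 in comparison cells, which with 3 counts over the group as the limit was at least 101-fold higher. *Anln*, a scaffold of the cleavage furrow, had 203 and 0 UMIs (at least 67.0-fold higher). *Kif2c*, a kinesin that takes microtubules apart at the kinetochore, had 115 and 0 (at least 37.9-fold higher). With these genes set at their lower bounds, the medians of the lists that hold them were the same. The abundant tubulins were higher by less, with *Tubb5* at 933 CPM against 367 CPM and *Tuba1b* at 741 CPM against 384 CPM.

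*Birc5*, which encodes survivin, a subunit of the chromosomal passenger complex and an inhibitor of apoptosis, is 1 of the 6 markers named for these cells and was not used in the gate. It lies at chr11:117849251-117855743 (mm10, plus strand). Members carried 0 to 20 *Birc5* UMIs with a median of 4, and comparison cells 0 to 12 with a median of 0. Its level was 216 CPM (202 to 230) in members and 14.8 CPM (11.4 to 18.8) in comparison cells, a log2 ratio of 3.86 (3.51 to 4.25). The ranges overlapped cell by cell, since 52 of 185 members had no *Birc5* UMI and 24 of 185 comparison cells had at least 1. Its partners in the same complex were higher too, with *Aurkb* at a log2 ratio of 4.21, *Cdca8* at 3.79 and *Incenp* at 2.64.

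Cyclins and their kinases divided by the stage at which they act. Of 19 genes, 13 were at least 2 times higher, with a median of 2.15, which was 1.19 over the 11 genes left after thinning without matching. *Ccna2*, cyclin A2 of S and G2 phase, had 348 UMIs in members and 4 in comparison cells (log2 ratio 6.26, 5.06 to 8.31), and its kinase *Cdk1*, which triggers mitosis, had 482 and 22. *Ccnb1*, cyclin B1 of mitosis, and *Ccne1*, cyclin E1 of the entry into S phase, had log2 ratios of 3.88 and 2.73. The D-type cyclins, which couple growth factor signals to the cycle and are made in non-dividing macrophages too, behaved otherwise: *Ccnd1* stood at 416 CPM against 351 CPM (log2 ratio 0.24, 0.15 to 0.34) and *Ccnd2* at 216 CPM against 340 CPM (log2 ratio -0.65, -0.77 to -0.54).

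CDK inhibitors and quiescence genes went both ways, with 3 of 15 at least 2 times higher, 0 lower and a median of -0.34. The 3 were *Cdkn2c*, the CDK4 and CDK6 inhibitor p18 (log2 ratio 2.88), *Rbl1*, the pocket protein p107 (1.65), and *Cdkn2d*, the inhibitor p19 (1.54). The most abundant genes of the list were lower instead: *Cdkn1a*, the p53 target p21, had a median of 15 UMIs per member (0 to 116) and 27 per comparison cell (0 to 102), with a log2 ratio of -0.55 (-0.61 to -0.49). The antiproliferative genes *Btg2* and *Btg1* had log2 ratios of -0.58 and -0.44. In the E2F and MYB family 5 of 10 genes were at least 2 times higher, among them *E2f1* at 1.21 (0.80 to 1.65) and the late repressor *E2f8* at 2.75 (2.08 to 3.56). In DNA repair it was 8 of 10 (median 2.72, but 0.82 over 5 genes after thinning without matching). The list was led in level by *H2afx*, the histone variant phosphorylated at DNA breaks, at 138 CPM against 27.3 CPM.

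The promoters of these genes were read for the words that E2F and DREAM are known for, from RefSeq windows of 250 bases before to 50 bases after the gene start (GRCm38.p6). The CHR words were TTTGAA and TTCGAA, the E2F words TTTGGCGC, TTTGCCGC, TTTCGCGC and TTTCCCGC, and the CCAAT word CCAAT, each on both strands. TTCGAA reads the same on both strands and was counted once, and E2F words on opposite strands can overlap. On the G2/M list 34 of 45 windows held a CHR word, which was 75.6%, against 4 of 31 on the S phase list (12.9%), 19.4% of all 27025 windows and 13.6% of the 5524 windows of genes compared here. An E2F word was held by 11 of 31 windows on the S phase list (35.5%), 8 of 17 on the licensing list (47.1%) and 3 of 45 on the G2/M list (6.67%). Among all windows the share was 2.34%, and among the 5524 windows of genes compared here it was 4.63%. The CCAAT word did not separate the lists, at 71.0% of S phase windows, 71.1% of G2/M windows and 37.8% of all. Macrophage core genes held a CHR word in 2 of 20 windows.

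Windows of genes named here are printed to show where these words stood, as the 250 bases before the start on the gene's own strand, with CHR and E2F words in capitals. *Cdk1* (chr10:69352913-69353162, minus strand) held CHR words 71 and 15 bases before its start and an E2F word 131 bases before it. *Cdc20* (chr4:118437344-118437593, minus strand), the activator of the anaphase-promoting complex, and *Ube2c* (chr2:164769679-164769928, plus strand), the ubiquitin-conjugating enzyme of that complex, each held 1 CHR word, 18 and 29 bases before the start. *Mcm6* (chr1:128359706-128359955, minus strand) held 3 E2F words and no CHR word, and 2 of the 3 overlap.
Cdk1: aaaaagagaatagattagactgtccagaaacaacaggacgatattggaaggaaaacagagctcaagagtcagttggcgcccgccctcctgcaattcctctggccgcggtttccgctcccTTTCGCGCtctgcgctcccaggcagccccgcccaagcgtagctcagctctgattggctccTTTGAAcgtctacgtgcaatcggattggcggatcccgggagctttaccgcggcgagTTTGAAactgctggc
Cdc20: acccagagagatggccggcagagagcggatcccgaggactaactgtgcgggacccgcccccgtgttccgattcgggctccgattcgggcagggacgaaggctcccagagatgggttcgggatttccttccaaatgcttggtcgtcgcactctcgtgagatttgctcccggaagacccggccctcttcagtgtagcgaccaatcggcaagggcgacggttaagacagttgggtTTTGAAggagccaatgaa
Ube2c: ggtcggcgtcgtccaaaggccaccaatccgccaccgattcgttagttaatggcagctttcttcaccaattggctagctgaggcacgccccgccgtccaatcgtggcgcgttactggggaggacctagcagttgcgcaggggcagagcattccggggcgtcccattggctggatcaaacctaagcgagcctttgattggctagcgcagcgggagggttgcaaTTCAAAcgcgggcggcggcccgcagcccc
Mcm6: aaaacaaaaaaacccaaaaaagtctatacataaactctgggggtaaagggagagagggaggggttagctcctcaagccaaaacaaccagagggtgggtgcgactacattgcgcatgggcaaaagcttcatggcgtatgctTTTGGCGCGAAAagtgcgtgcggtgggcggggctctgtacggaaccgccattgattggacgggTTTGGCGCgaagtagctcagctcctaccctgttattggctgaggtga
In the same cells *Cdc20* had a log2 ratio of 4.10 (3.29 to 5.19) and *Ube2c* of 4.45 (3.96 to 5.03), next to the values of *Cdk1* and *Mcm6* given above. The window of *Birc5* held none of the words. A match is a description of the sequence and shows no binding.

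Members differed in the stage of the cycle they were in. Thinned to 5000 UMIs, a member held a median of 10 UMIs of the S phase list (1 to 39) and 22 of the G2/M list (2 to 82), against 3 (0 to 15) and 6 (1 to 36) in comparison cells. Neither list holds *Mki67* or *Top2a*. Both lists summed lay above 21, the 95th percentile of comparison cells, in 149 of 185 members, so 36 members were within the range of most comparison cells. To describe the spread, each list's UMIs were divided by the list's total over members, and the G2/M part of the sum of both was taken. In 72 members the S phase list led (part of at most 0.4), in 64 the G2/M list led (at least 0.6), and 49 were mixed. These are ranges on a continuous score and not cell types, and 12 members lay within 0.02 of a limit.

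**Figure D2:**
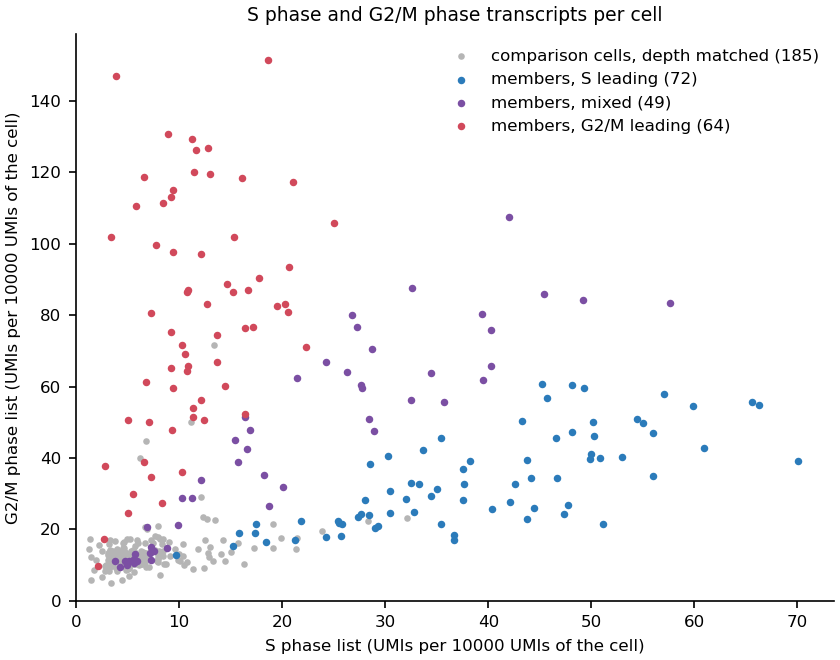
UMIs of the S phase list (x axis) and of the G2/M list (y axis) per 10000 UMIs of the cell, with 1 point per cell for the 185 members, colored by leading list, and the 185 comparison cells in grey. Comparison cells gather near the origin, and members spread along both axes without a gap between the 72 S-leading, 49 mixed and 64 G2/M-leading cells.

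Genes that were on neither of these 2 lists ordered along the same split. *Ccne1* stood at 75.2 CPM (63.0 to 89.1) in S-leading members, 33.8 CPM in mixed and 6.46 CPM (3.10 to 11.9) in G2/M-leading members. *Ccnb1* went the other way, at 18.0 CPM (12.3 to 25.3), 44.7 CPM and 123 CPM (106 to 142), and so did *Plk1*, the mitotic kinase Polo, at 6.73, 31.2 and 81.4 CPM. *Ccna2* was at 46.6, 63.3 and 123 CPM. Cyclin E1 transcripts were thus highest where the S phase list led, and cyclin B1 and *Plk1* transcripts where the G2/M list led.

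*Hist1h1b* was highest in the mixed members, at 610 CPM (567 to 656), against 279 CPM in S-leading and 309 CPM in G2/M-leading members. *Cdkn1a* was also highest in mixed members, at 1262 CPM (1199 to 1327), against 806 CPM and 674 CPM. The mixed range held 20 of the 36 members with both lists at or below the 95th percentile of comparison cells, and *Cdkn1a* stood at 1289 CPM in the comparison cells. Among the 29 mixed members above that percentile *Cdkn1a* was at 987 CPM (918 to 1060) and *Hist1h1b* at 883 CPM (818 to 952), against 751 and 316 CPM in the 63 such S-leading and 648 and 344 CPM in the 57 such G2/M-leading members. *Ccnd1* varied less, at 484, 364 and 376 CPM. The median depth of the 3 ranges was close, at 24745.5, 23527 and 23334.5 UMIs.

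**Figure D3:**
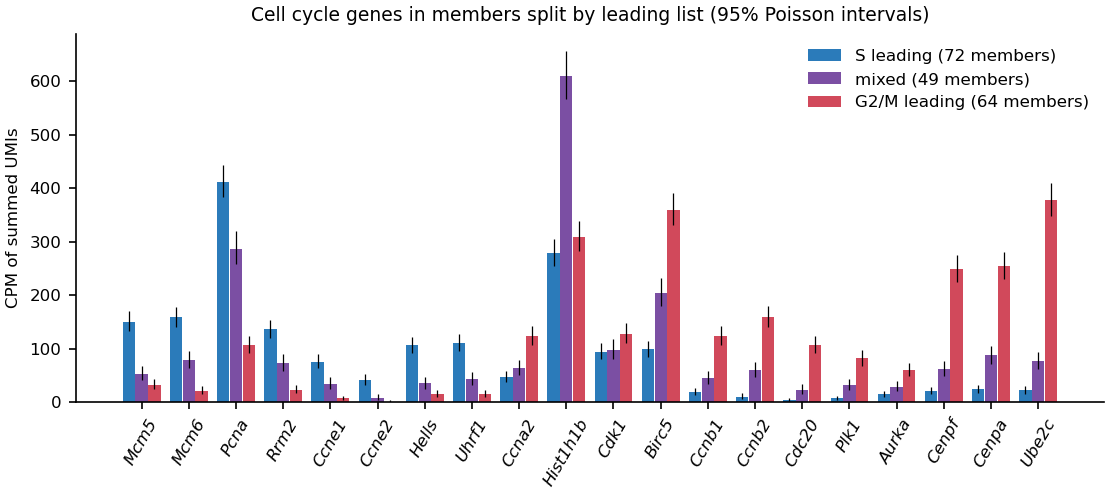
CPM of summed UMIs (y axis, linear from 0) of cell cycle genes in members whose S phase list led (72 cells), mixed members (49) and members whose G2/M list led (64), with exact 95% Poisson intervals. Genes of the S phase and G2/M lists, such as *Pcna* and *Rrm2*, made the split, so their order across the ranges follows from it. *Ccne1*, *Ccna2*, *Ccnb1* and *Plk1* are on neither list. *Ccne1* goes from 75.2 to 6.46 CPM across the 3 ranges, and *Plk1* from 6.73 to 81.4 CPM.

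The macrophage core list varied little along this axis, whereas the other lists and genes given here varied more. The macrophage core list summed to 25271 CPM in S-leading, 24819 CPM in mixed and 25428 CPM in G2/M-leading members. The MHC class II list stood at 20620, 20942 and 17359 CPM, and the Myc target and nucleolar list, genes of ribosome making, at 9300, 7842 and 7232 CPM. The G2/M-leading members thus had the lowest sums of both of these lists. *Mrc1* was at 224, 197 and 273 CPM, and *Cadm1* at 56.7, 40.5 and 62.0 CPM.

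Macrophage genes differed from comparison cells by less than 2-fold. On the macrophage core list 0 of 28 genes were 2 times higher or lower, and the median log2 ratio was -0.11. Per cell, thinned to 5000 UMIs, the list had a median of 123 UMIs in members and 125 in comparison cells. The list holds the C1q genes of the gate, and its 27 other genes had a median of 80 UMIs in members and 89 in comparison cells. Their sum was 16446 CPM against 18245 CPM (log2 ratio -0.15, -0.16 to -0.14), and 8 of the 25 compared were above 0. *C1qb*, *Fcer1g* and *C1qa*, its most abundant genes, had log2 ratios of 0.17, -0.21 and 0.22. On the tissue macrophage and scavenger list 0 of 15 genes reached 2-fold either way (median 0.09), with the chemokines *Ccl8* at 0.32 and *Pf4* at 0.30 and the scavenger receptor *Msr1* at -0.14.

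The markers *Mrc1* and *Cadm1* were under 2-fold apart from comparison cells of like depth. *Mrc1*, the mannose receptor CD206, at chr2:14229392-14332057 (mm10, plus strand), had a median of 5 UMIs per member (0 to 32) and 3 per comparison cell (0 to 29), and stood at 234 CPM (220 to 248) against 184 CPM (172 to 197), a log2 ratio of 0.35 (0.21 to 0.48). *Cadm1*, a cell adhesion molecule also found on cDC1, at chr9:47530173-47857637 (mm10, plus strand), stood at 54.3 CPM (47.7 to 61.5) against 35.4 CPM (30.1 to 41.3), a log2 ratio of 0.62 (0.32 to 0.92). Against all 1608 non-cycling gated cells, at 24.2 CPM, the log2 ratio of *Cadm1* was 1.17, and it was 1.43 with all cells that reached 5000 UMIs thinned to that depth, so it was past 2-fold in both. The ranges of both genes overlapped almost wholly between the 2 sets of cells. A *Cadm1* UMI was found in 45.9% of members and 30.3% of comparison cells as deposited, and in 16.8% (11.7 to 22.9) and 11.9% (7.60 to 17.5) after thinning to 5000 UMIs. In ZsG-positive lymphocytes (median 4558 UMIs) it was found in 0 of 80 cells that reached 5000 UMIs, which with 3 counts as the limit allows up to 3.75%, and 95 shallower cells were left out. At equal depth the shares in members and comparison cells were thus within each other's intervals, and both lay above the lymphocyte limit.

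Most monocyte genes were lower in members by less than 2-fold. On the monocyte list 2 of 20 genes were at least 2 times lower and 1 at least 2 times higher, the median log2 ratio was -0.53, and 18 of 20 genes lay below 0. Per cell the list had a median of 43 UMIs in 5000 in members and 61 in comparison cells, and 25.4% (19.3 to 32.3) of members lay above the comparison median. *Chil3*, which encodes the chitinase-like protein Ym1 of young monocytes, lies at chr3:106147554-106167564 (mm10, minus strand). Its counts ran from 0 to 21 UMIs per member (median 0) and from 0 to 63 per comparison cell (median 1). At 47.8 CPM (41.7 to 54.7) against 154 CPM (142 to 166) its log2 ratio was -1.68 (-1.91 to -1.46). *Ly6c2*, the surface antigen of classical monocytes, had a median of 3 UMIs per member (0 to 69) and 11 per comparison cell (0 to 141), with a log2 ratio of -0.91. The coagulation factor gene *F10* was at -1.04, and the most abundant genes of the list, *Ifitm3*, *Ly6a* and *S100a6*, were at -0.42, -0.09 and -0.35.

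*Cx3cr1*, the fractalkine receptor of non-classical monocytes and of many tissue macrophages, was the 1 gene of that list at least 2 times higher in members. It lies at chr9:119901616-120069879 (mm10, minus strand) and stood at 46.3 CPM (40.2 to 53.0) in members and 15.2 CPM (11.8 to 19.3) in comparison cells, a log2 ratio of 1.60 (1.20 to 2.02). As deposited, 31.9% of members and 14.6% of comparison cells carried a UMI, with up to 17 in a member and 10 in a comparison cell. Thinned to 5000 UMIs the shares were 16.8% (11.7 to 22.9) and 5.95% (3.01 to 10.4), against 0 of 80 ZsG-positive lymphocytes. A *Cx3cr1* UMI was thus detected in a minority of the members, which at this level does not limit the share of members that express the gene. The member with the most held 8.13% of the *Cx3cr1* UMIs of members.

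Antigen presentation, interferon and inflammatory lists had medians below 0 with few or no genes past 2-fold. MHC class II had 0 of 10 genes past 2-fold either way, with a median of -0.34 and with *Cd74*, *H2-Ab1* and *H2-Aa* at -0.31, -0.35 and -0.33. Per cell its median was 94 UMIs in 5000 in members and 123 in comparison cells. MHC class I had a median of -0.16, with *B2m*, *H2-D1* and *H2-K1* at -0.25, -0.23 and -0.25, and the interferon response list had 0 of 29 genes past 2-fold with a median of -0.26, *Cxcl10* at 0.12, *Cxcl9* at -0.36 and *Isg15* at -0.46. The inflammatory list had 0 of 24 genes 2 times higher and 2 lower, with a median of -0.30. Its most abundant genes, the chemokines *Ccl2*, *Cxcl2* and *Ccl7*, were at -0.32, -0.21 and -0.36. The 2 were *Ccl5*, a chemokine for T cells, at 88.4 CPM against 278 CPM (log2 ratio -1.65, -1.82 to -1.49), and *Nos2*, inducible nitric oxide synthase, with 39 against 108 UMIs (log2 ratio -1.47, but 0.55 without cells carrying at least 3 UMIs of other cell types' lists, which left 59 members). The *Ccl5* UMIs were concentrated in few cells: 3 comparison cells held 45.5% of the 1243 UMIs (up to 208 in 1 cell), the median comparison cell held 1, and its log2 ratio was -0.22 without cells that carried another cell type's defining markers.

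On the hypoxia and glycolysis list 2 of 23 genes were at least 2 times lower and 0 higher. They were *Hilpda*, a lipid droplet protein induced by low oxygen, at 66.9 CPM against 142 CPM, and *Vegfa*, the vascular growth factor, at 14.4 CPM against 29.3 CPM. The glycolytic enzymes *Gapdh*, *Pkm* and *Ldha*, the most abundant genes of that list, were at -0.11, -0.11 and -0.13, and the list median was -0.15. None of the 23 was above 0, so the whole list lay below it, by less than 2-fold for 21.

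On the lipid-associated list 1 of 17 genes was at least 2 times higher and 0 lower, with a median of -0.31. The 1 was *Fabp4*, a fatty acid carrier, with 122 UMIs in 17 members, of which 3 members held 62.3%, and 18 UMIs in comparison cells (log2 ratio 2.71). It was no longer past 2-fold after thinning with all comparison cells of at least 5000 UMIs (0.50), without the top Scrublet doublet scores (0.56) or without cells holding pigment gene UMIs (0.96). *Lgals3*, *Npc2* and *Apoe* were at -0.36, -0.19 and -0.31. The lysosome and phagocytosis list (0 of 33 past 2-fold, median -0.12), with *Psap*, *Ctss* and *Ctsb* at -0.09, -0.25 and -0.09, had 7 of 33 genes above 0. Per cell its median was 95 UMIs in 5000 in members and 106 in comparison cells, and 35.7% (28.8 to 43.0) of members lay above the comparison median.

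Growth and energy genes were shifted little. The Myc target and nucleolar list had 0 of 32 genes past 2-fold, a median of 0.16 and 26 of 32 genes above 0, and 67.0% (59.7 to 73.7) of members lay above the comparison median per cell. *Npm1*, nucleophosmin of the nucleolus, was at 0.28, and the translation factors *Eif4a1* and *Eif5a* were at 0.06 and 0.02. All 13 mitochondrially encoded genes were above 0 (median 0.22), while the 73 nuclear genes of oxidative phosphorylation had a median of 0.04 and the proteasome list of 0.03. Growth factor receptors and self-renewal genes had 0 of 24 past 2-fold (median -0.30), with the immediate early genes *Fos*, *Junb* and *Egr1* at -0.20, -0.51 and -0.18. Cholesterol synthesis genes had a median of -0.23, and on the apoptosis and stress list (median -0.31) only *Hspa1a*, the inducible HSP70, was past 2-fold, at 77.5 CPM against 166 CPM.

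**Figure D4:**
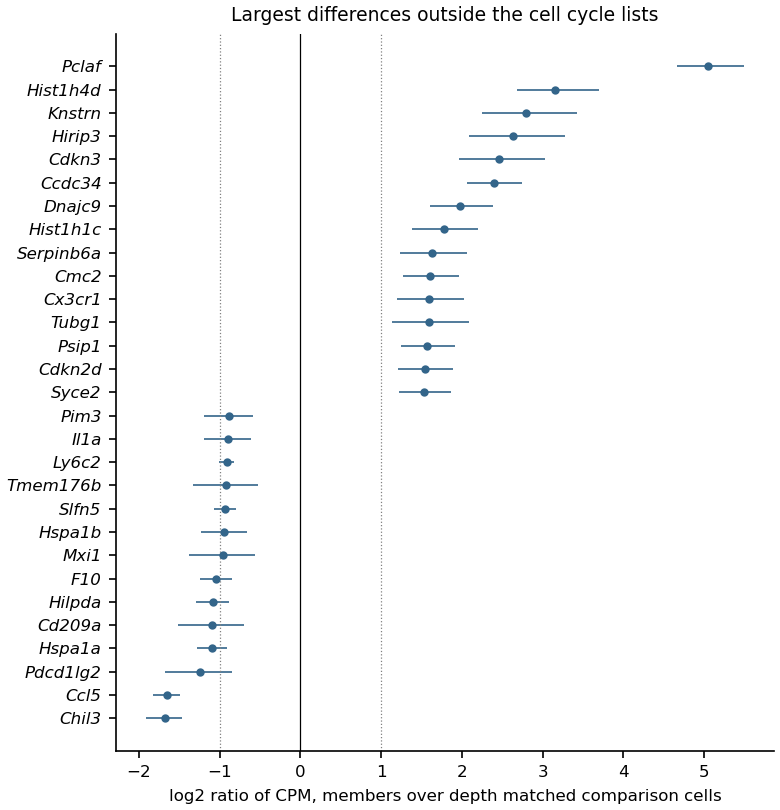
Log2 ratio of CPM, members over depth matched comparison cells (x axis), with exact 95% intervals for counting error, for the genes with the largest ratios in each direction outside the cell cycle lists, among genes with at least 200 UMIs that were detected in 10% or more of either set of cells. Genes with Gm, Rik or mt- names and ribosomal protein genes were left out. *Pclaf* at 5.05 lies apart on the right and *Cx3cr1* is at 1.60. Of the genes shown *Chil3* and *Ccl5* have the lowest ratios, at -1.68 and -1.65.

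Genes outside the 12 cell cycle lists were ranked if they had at least 200 UMIs and were detected in 10% or more of either set of cells. Genes with Gm, Rik or mt- names and ribosomal protein genes were left out. The 15 with the largest ratios still held many that take part in division. *Pclaf*, the PCNA-binding factor of replicating cells, had a median of 8 UMIs per member (0 to 39) and 0 per comparison cell (0 to 5), and stood at 390 CPM (372 to 409) against 11.6 CPM (8.69 to 15.3). Its promoter window held an E2F word 5 bases before the start. *Hist1h4d* (log2 ratio 3.15) and *Hist1h1c* (1.78) are histones, *Hirip3* (2.64) and *Dnajc9* (1.98) encode histone chaperones, *Knstrn* (2.79) and *Tubg1* (1.59) act on the spindle and centrosome, and *Cdkn3* (2.46) encodes a phosphatase of cyclin-dependent kinases. *Cdkn2d*, *Ccdc34* (2.39), *Cmc2* (1.61), *Psip1* (1.57) and *Syce2* (1.54) were also among the 15. Besides *Cx3cr1*, the serine protease inhibitor *Serpinb6a* was among them, at 45.4 CPM against 14.6 CPM (log2 ratio 1.63), in 29.7% of members.

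At the other end were *Pdcd1lg2*, the PD-1 ligand PD-L2, with 70 UMIs in members and 165 in comparison cells (log2 ratio -1.25, -1.68 to -0.84), and *Slfn5*, an interferon-induced Schlafen gene, in 71.9% of members and 94.1% of comparison cells (log2 ratio -0.93). *Mxi1*, which encodes an antagonist of Myc, was at -0.96, *Il1a*, interleukin 1 alpha, at -0.90, *Tmem176b* at -0.92, *Pim3* at -0.88 and the second inducible HSP70 gene *Hspa1b* at -0.94. *Cd209a*, a lectin of cDC2 and monocyte-derived cells, was at -1.09, but its UMIs lay in 19 members and 30 comparison cells and its ratio changed sign under other choices of comparison cells. *Retnla*, which encodes the alternative activation product RELM-alpha, was chosen after its values were seen: it had 290 UMIs in 7 members, 74.1% of them in 1 cell, and 0 in comparison cells.

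The same lists were followed over all 1793 gated cells by their sum of *Mki67* and *Top2a* UMIs. In cells with a sum of 0, 1, 2, 3 to 5, 6 to 10 and over 10, the S phase list stood at 606, 864, 1152, 1837, 2128 and 2958 CPM, and the G2/M list at 1302, 1452, 1808, 3194, 3511 and 6899 CPM. *Birc5* was at 5.04, 11.4, 32.8, 123, 126 and 291 CPM. Cells with a sum of 1 or 2, which the threshold places outside, thus already stood above cells with none, and the largest step for *Birc5* in CPM below a sum of 6 lay at the threshold. *Cadm1* was at 22.3 CPM with a sum of 0, 45.9 CPM (35.3 to 58.8) at 2 and 49.8 CPM (38.5 to 63.4) at 3 to 5, so cells on the 2 sides of the threshold did not differ beyond their intervals. *Cdkn1a* was at 1533 CPM with a sum of 0, 977 CPM (925 to 1030) at 2 and 963 CPM (911 to 1017) at 3 to 5. The depth of these steps differed, with a median of 11586 UMIs at 0, 18602.5 at 2 and 25740 over 10, and its part in the order was not tested.

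The order was also read in thinned counts. Thinned to 5000 UMIs and grouped by the sum left, 0, 1, 2 or at least 3 UMIs (1468, 144, 43 and 86 cells), *Birc5* stood at 7.77, 38.9, 140 and 316 CPM. *Cdkn1a* stood at 1523, 1326, 847 and 767 CPM, the monocyte list at 15188, 13143, 12214 and 9563 CPM, and *Cx3cr1* at 21.1, 20.8, 23.3 and 76.7 CPM. *Cdkn1a* and the monocyte list thus kept their order in thinned counts, while *Cx3cr1* was higher in the last group alone. Before thinning these groups had medians of 12447, 15470, 18328 and 23682.5 UMIs, and the part of cell size or depth in the order was not tested.

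**Figure D5:**
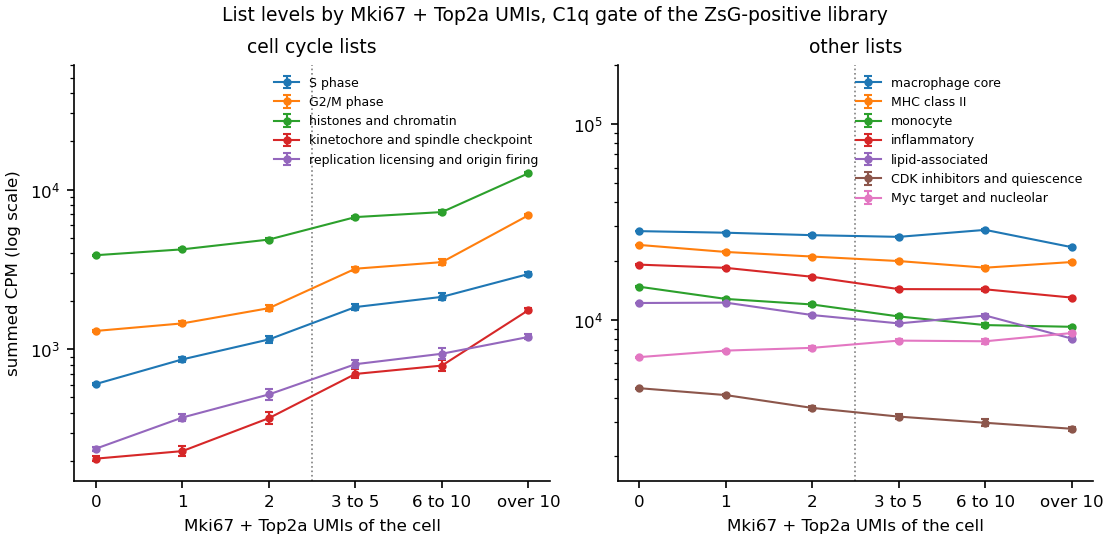
Summed CPM (y axis, log scale) of cell cycle lists (left) and other lists (right) in gated ZsG-positive cells grouped by their *Mki67* and *Top2a* UMIs (x axis, 1337, 197, 74, 65, 27 and 93 cells), with exact 95% Poisson intervals and a dotted line at the gate's threshold. The S phase list goes from 606 to 2958 CPM, while the monocyte list goes from 14745 to 9198 CPM.

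For scale, the members were set beside cycling lymphocytes of the same sort (at most 2 UMIs each of C1q and *Lyz2*, at least 3 *Cd3* or 1 *Ncr1* UMI, and the same *Mki67* and *Top2a* threshold), of which there were 554, 506 of them ZsG-negative. Their median depth was 26005 UMIs. They held more of both phase lists than members did, at 4675 against 2499 CPM for S phase and 8913 against 5281 CPM for G2/M, and *Birc5* stood at 321 against 216 CPM. Lymphocytes under that threshold also stood above all non-cycling gated cells. Their levels were 1221 against 678 CPM for S phase, 2131 against 1356 CPM for G2/M and 16.7 against 7.71 CPM for *Birc5*. *Ccnd1* and *Cdkn1a* went the other way, at 9.45 CPM in cycling lymphocytes and 416 CPM in members for *Ccnd1*, and at 76.6 and 880 CPM for *Cdkn1a*. Both genes were also high in non-cycling gated cells, at 316 and 1475 CPM, so members were closer for these 2 genes to non-cycling cells of their own gate than to cycling lymphocytes. Most of these lymphocytes came from the other library. In the 175 lymphocytes of the members' own library, 48 of them cycling, *Ccnd1* had 36 UMIs (15.4 to 30.5 CPM) and *Cdkn1a* stood at 120 CPM (104 to 138), both also below the level in members. The S phase list stood at 3694 CPM and the G2/M list at 6302 CPM there, both above members. *Birc5* was at 189 CPM (168 to 211) there, and this interval overlapped that of members (202 to 230). Unlike the members, most of the 175 were under the cycling threshold, and levels in the 48 alone are not given.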

How the data were processed

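Single-cell RNA-seq was measured in 2 CD45 and 2 T cell libraries, with 1 library per condition. The authors aligned reads to mm10 and deposited UMI counts per gene and cell, unnormalized, with both libraries of a sort aggregated in 1 matrix. Per the labels this was done with Cell Ranger 6.1.2, whereas 7.0.0 stands in the header of the matrix used here. No source here states whether aggregation equalised depth. In the CD45 sort, library and gate came from barcode suffixes. The 2 T cell libraries were pooled, because their labels contradict each other on which is ZsG-positive. Cells were filtered and gated as stated in the report, and each member was matched, deepest first and without replacement, to the comparison cell nearest in log10 UMIs within 0.05. UMIs were summed and scaled to CPM, with 0.5 added to each sum for ratios and exact Poisson, Clopper-Pearson or conditional binomial 95% intervals. Genes with at least 100 UMIs over both sums were compared. With 1 library per condition no test was run, and past 2-fold stands for a call. The ratio step was tested on simulated data. Doublets were scored with Scrublet in scanpy 1.11.5, whose automatic threshold marked 2 of 4123 cells and was taken as not working, so none were removed and the top 5% of scores served as an alternative. TMM factors came from edgeR 4.0.16 in R 4.3.3. Other steps used scipy 1.17.1, numpy 2.4.6, pandas 2.3.3 and matplotlib 3.10.9 under Python 3.11.15. Promoter windows were from RefSeq and gene positions from GENCODE, both on GRCm38.

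The cells and gene lists were chosen with earlier results of these data known. Named genes were the 6 markers (*C1qa*, *Top2a*, *Mki67*, *Birc5*, *Cadm1*, *Mrc1*), genes from the 3 of highest CPM in each list (not all are described, such as those of the oxidative phosphorylation, proteasome, cholesterol, apoptosis and other cell type lists), genes past 2-fold needed to describe a list, and the 15 largest ratios in each direction outside the cell cycle lists with at least 200 UMIs and a UMI in 10% of either set of cells, of which 1 is not reported here. The ranking by ratio left out genes with Gm, Rik or mt- names and ribosomal protein genes. Alternatives were other thresholds, no matching, thinning without matching, other scalings and pseudocounts, and leaving out cells with high Scrublet scores, pigment UMIs or other cell types' markers. The last, in 2 forms, was added after seeing the data.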

Additional observations from a re-analysis of the deposited data

Results flagged for a closer look

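The T cell sort of the same kind of tumor was not used for any comparison above, yet it held cells that met the same gate. Its ZsG-positive and ZsG-negative libraries were pooled, so no ZsG gate is assigned to these cells. Of 2694 kept cells, 134 passed the C1q gate, and 9 of these carried at least 3 UMIs of *Mki67* and *Top2a*, which was 6.72% (3.12 to 12.4). They are listed because a signal was present in data outside the main measurement. The 9 cells held a median of 35810 UMIs and the other gated cells of that sort 15968 UMIs, so depth moved with the cycling count there too. Each cell passed the limit of 1 *Cd3* UMI, and no level is compared between the 2 sorts.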

How the results depend on the processing

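The number of members was 129 to 259 under other gate thresholds (185 as reported). Their share of gated cells was 15.7% after thinning with at least 1 UMI and 7.41% with at least 2. The 280 higher and 21 lower genes became 440 and 81 without depth matching and 607 and 141 with a minimum of 20 UMIs. Higher genes numbered 182 without cells carrying a pigment UMI (113 members). They numbered 100 without cells carrying at least 3 UMIs of other cell types' lists (59 members). Lower genes numbered 101 after thinning without matching (204 higher) and 34 without the top Scrublet scores. In all thinned ratios, medians and gene counts of this section, all non-cycling gated cells of at least 5000 UMIs replaced the matched partners. Thinning and matching thus changed together. The S phase median was 1.39 without cells carrying other lists' UMIs, and the G2/M median 2.25 after thinning without matching. Other cell cycle medians moved too. Condensin and cohesin (2.15) was 1.25 thinned, 1.30 without pigment cells and 1.07 without other lists' cells, cyclins and CDKs (2.15) 1.19 thinned, kinetochore (3.22) 1.97 thinned, DNA repair (2.72) 0.82 thinned and 1.84 without other lists' cells, and spindle (3.86) 4.75 against cells with no *Mki67* or *Top2a* UMI. E2F and MYB (1.10) was 0.19 without other lists' cells, where 1 gene was left. None of these reversed. The macrophage core median was -0.17 unmatched, -0.18 without top Scrublet scores, -0.18 without pigment cells, -0.41 without other lists' cells and -0.19 without cells carrying other types' defining markers. The MHC class II median was -0.21 unmatched, -0.28 thinned and -0.27 without pigment cells. *Cd209a* reversed to 0.069 unmatched, 1.15 thinned, 1.57 without other lists' cells and 0.26 without cells carrying other types' defining markers, and *Nos2* to 0.55 without other lists' cells. The cause was not tested. Some alternatives left fewer cells or genes, and others, such as no matching or a minimum of 20 UMIs, let in more. Of 192 followed genes past 2-fold, 169 stayed past it under all 14 alternatives. *Birc5* ranged from 3.48 to 5.07, *Cx3cr1* from 1.24 to 2.00, *Chil3* from -2.16 to -1.48, *Cadm1* from 0.46 to 1.43 and *Mrc1* from 0.11 to 0.46 over these alternatives, whereas *Fabp4* ranged from 0.50 to 2.77 and *Ccl5* from -1.72 to -0.22. The median of all genes moved by at most 0.05. High Scrublet scores were found in 22 members, 33 comparison cells and 107 of all 1608 non-cycling gated cells. With 1 library per condition, no paired analysis was possible, and spread between tumors could not be estimated. Genes under 100 UMIs were not compared.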
